A study of Mus musculus with 3 samples.

Results

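The granins and the enzymes that turn prohormones into active peptides were examined in the choroid plexus epithelium (CPE) of the mouse. The set held 10 listed genes, taken by name: *Chga*, *Chgb*, *Scg2*, *Scg3*, *Scg5*, *Pcsk1*, *Pcsk2*, *Cpe*, *Pam* and *Vgf*. In italics *Cpe* is the gene of carboxypeptidase E, whereas CPE in capitals is the epithelium. Every probe that carried 1 of these names on the array and was no control spot was kept, which gave 15 of the 41174 probes and 9 of the 28599 gene names. No probe carried the name *Vgf*, and this gene is therefore not analysed here.

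Granins are acidic proteins that are packed at high concentration into dense-core granules, the stores from which endocrine cells and neurons release hormones on demand. Many hormones enter these granules as inactive precursors: prohormone convertases cut them behind pairs of basic amino acids, carboxypeptidase E removes the basic residues left at the new ends, and peptidylglycine alpha-amidating monooxygenase amidates those ends that finish in glycine. The CPE is best known for making cerebrospinal fluid and for secreting proteins such as transthyretin and insulin-like growth factor II into it.

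The series comprised 3 CPE samples from 3 healthy C57BL/6 mice and 1 common reference, RNA of the retinal pigment epithelium and choroid (RPE/choroid) of the same strain. The CPE had been cut by laser from frozen sections of the brain, and its mRNA was amplified and labelled with Cy5. The reference was labelled with Cy3 on all 3 arrays, with no dye swap. The labels name no treatment and no introduced allele, and the only comparison was that of the epithelium with the reference on the same array.

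Each value below is either a log2 ratio of CPE over reference, positive where the CPE channel was brighter, or a percentile, the rank of a probe's CPE signal among all 41174 probes. The study's expression classes were kept: a probe ranked over percentile 90 was high, between 50 and 90 moderate, between 10 and 50 low, and below 10 very low. Probes that stood well above background in 1 channel or both on each of the 3 arrays were tested, and a call needed an adjusted p under 0.05 (limma, Benjamini-Hochberg over all 25841 tested probes) and a 2-fold difference or more. Since the reference was a single RNA, the errors hold the spread between the 3 mice and their arrays and not that between reference animals, and a dye effect of a single probe cannot be told apart from a difference in RNA. In a sample that holds more than 1 cell type, fewer cells of a type and less RNA per cell cannot be told apart. This holds for the RPE/choroid reference and for any other cells cut along with the CPE.

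Of 12 CPE markers measured, 11 were called higher in the CPE than in the reference, and all 12 were in the high class. Their median log2 ratio was at least 3.47, since *Ttr* and *Enpp2* were saturated in the CPE on all 3 arrays and *Clic6* on 1. Of 12 neuronal markers, 7 were called lower and none higher, and their summed CPE intensity was 3841 to 4103 against 22741 to 24344 in the reference. Markers of the RPE and melanocytes (10 of 11 called lower, median -5.26) and of photoreceptors (9 of 9, median -4.71) were also brighter in the reference, and the CPE signal of *Tyr* and *Pde6a* never rose well above background. Of 4 ependymal markers, 3 were called higher. The third array had the brightest background (363 intensity units for Cy5, where the arrays of mice 1 and 2 had 81.2 and 82.6), and 85.6% of probes were scored above background there against 58.5% and 46.0%.

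Of the 8 granin and processing genes that could be tested, 5 were called: *Pcsk2* was higher in the CPE, and *Chga*, *Chgb*, *Scg2* and *Cpe* were lower. Over all 18282 genes tested, 18.9% were called, 7.93% as higher and 11.0% as lower. With median centring in place of loess normalization, the higher share of all called probes moved from 41.1% to 67.0% and the median log2 ratio of all tested probes from -0.04 to 0.09, and the same 5 genes were called in the same directions. At probe level, 7 of 12 tested probes were called, 2 higher and 5 lower, against 17.3% of all tested probes. In terms of CPE level, *Pcsk2*, *Cpe* and *Scg5* reached the high class by their brightest probe, 3 of 9 genes, where 12.5% of all genes did; 5 were moderate and 1, *Pcsk1*, was low. No probe of the set was saturated.

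The promoters of *Chga*, *Chgb* and *Scg2*, which were called lower, and of *Pcsk2*, which was called higher, are printed to compare their sequence in front of the transcription start. Each is the 250 bases before the start, from the RefSeq table of GRCm38.p6, 5′ to 3′ on the strand of the gene. The capitals mark every core of the cAMP response element, TGACG on either strand (CGTCA where it lies on the strand not printed), and the full element TGACGTCA where overlapping cores join. The windows lie at chr12:102554691-102554940 (*Chga*, plus strand), chr2:132781392-132781641 (*Chgb*, plus strand), chr1:79440027-79440276 (*Scg2*, minus strand) and chr2:143545883-143546132 (*Pcsk2*, plus strand).
Chga: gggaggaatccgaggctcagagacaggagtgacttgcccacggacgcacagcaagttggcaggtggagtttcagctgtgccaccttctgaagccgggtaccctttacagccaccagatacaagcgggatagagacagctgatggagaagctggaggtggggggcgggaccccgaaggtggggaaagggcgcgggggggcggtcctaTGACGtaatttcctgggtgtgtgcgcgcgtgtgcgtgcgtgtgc
Chgb: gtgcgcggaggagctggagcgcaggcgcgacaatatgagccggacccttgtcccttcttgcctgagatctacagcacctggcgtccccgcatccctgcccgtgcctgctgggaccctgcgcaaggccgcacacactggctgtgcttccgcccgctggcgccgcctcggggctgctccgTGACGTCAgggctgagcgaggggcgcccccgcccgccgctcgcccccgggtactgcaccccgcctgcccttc
Scg2: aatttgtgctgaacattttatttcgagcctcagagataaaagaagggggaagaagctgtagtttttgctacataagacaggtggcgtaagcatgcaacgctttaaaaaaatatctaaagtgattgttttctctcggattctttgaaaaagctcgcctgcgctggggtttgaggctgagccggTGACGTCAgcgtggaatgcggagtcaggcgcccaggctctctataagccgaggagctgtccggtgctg
Pcsk2: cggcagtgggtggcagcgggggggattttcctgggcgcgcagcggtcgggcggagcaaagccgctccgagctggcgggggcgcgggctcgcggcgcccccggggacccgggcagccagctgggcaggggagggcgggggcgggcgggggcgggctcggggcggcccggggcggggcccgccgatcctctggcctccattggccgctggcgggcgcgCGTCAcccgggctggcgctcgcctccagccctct

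Of the 10 genes, 8 matched the promoter table by symbol; *Cpe* and *Vgf* did not. The full palindrome TGACGTCA, to which the cAMP-regulated factor CREB binds, was found 72 bases before the start of *Chgb* and 68 bases before that of *Scg2*. It also stood 78 bases before the start of *Pcsk1*, which made 3 of 8 genes, against 508 of all 32851 promoters (1.55%). *Chga* held a core, 44 bases before its start, and *Pcsk2* held 1 on the opposite strand, 34 bases before its start. A core was present in 7 of 8 genes, all except *Pam*, against 17.8% of all promoters; the full element holds 2 overlapping cores.

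The GC box, GGGCGG or CCGCCC, was found in 5 of 8 genes and in 32.7% of all promoters. The *Pcsk2* window held 7 matches and 82.4% G and C, and the *Scg2* window held none and 48.0% G and C. The full element of the 3 genes began 68 to 78 bases before the start, whereas the GC boxes lay 18 to 203 bases before it. These counts describe letters in a window, and no binding was measured.

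**Figure D1:**
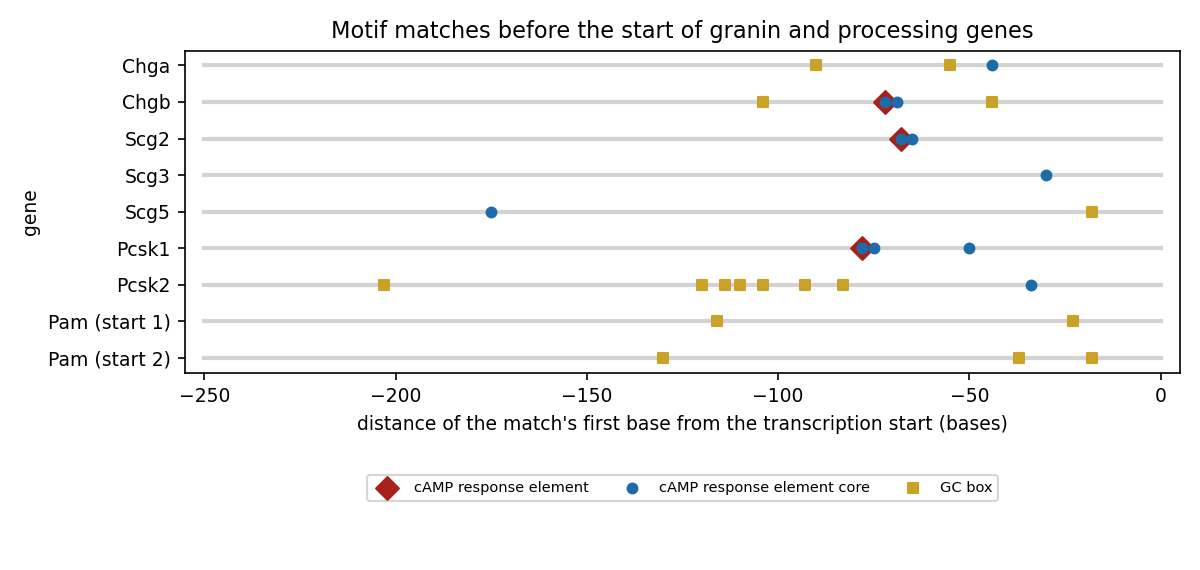
Position of the cAMP response element, its core and the GC box in the 250 bases before the start of the 8 genes that matched the RefSeq promoter table; the x axis is the distance from the start in bases, each row is a promoter (*Pam* has 2), and symbols give the motif. The full element stood at 72, 68 and 78 bases in *Chgb*, *Scg2* and *Pcsk1*.

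The granins came first in the comparison. *Chga* encodes chromogranin A, an acidic granule protein and the source of several cleavage peptides. Its probe (chr12:102965923-102965982, mm8, plus strand) read 308, 216 and 794 intensity units in the CPE of mice 1, 2 and 3, against 1212, 1252 and 1444 in the reference on the same arrays. The CPE values all lay under the reference values. Here and below, such separation describes uncorrected readings against a single reference RNA, and its share over all probes was not counted. The log2 ratios were -2.74, -2.70 and -2.14, with a mean of -2.53 (SE 0.18, n = 3 mice, limma adjusted p = 5.61e-05), which made the reference 5.77-fold higher. The CPE percentiles were 62.3, 66.1 and 72.9, all moderate, whereas the probe was in the high class of the reference at 91.6.

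*Chgb* encodes chromogranin B, which shares the granule with chromogranin A. Its main probe (chr2:132486408-132486467, mm8, plus strand) was spotted 10 times on each array. The mean intensity was 891, 859 and 1238 in the CPE of mice 1, 2 and 3, and 3880, 3870 and 3873 in the reference. Reference readings were nearly level over the arrays, and each lay above every CPE reading. The log2 ratios were -3.17, -2.70 and -2.76, mean -2.88 (SE 0.17, n = 3, limma adjusted p = 2.46e-05), so that the reference was 7.34-fold higher. With median centring the mean was -2.22. The percentile was 78.3, 84.8 and 84.6 in the CPE, moderate in each mouse, and 97.7 in the reference, which is high.

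The repeated spots of this probe gave the scatter of the ratio within an array. On array 1 the 8 spots left after outlier removal ran from -3.21 to -3.10 with an SD of 0.037. On array 2 the 10 spots ran from -2.81 to -2.56 (SD 0.075), and on array 3 from -2.87 to -2.67 (SD 0.068). The SD between the 3 mice was 0.26. Spots on 1 array share its RNA, labelling and slide, so that their scatter leaves out the error of amplification, labelling and hybridisation, and they entered the test as 1 mean for each mouse.

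**Figure D2:**
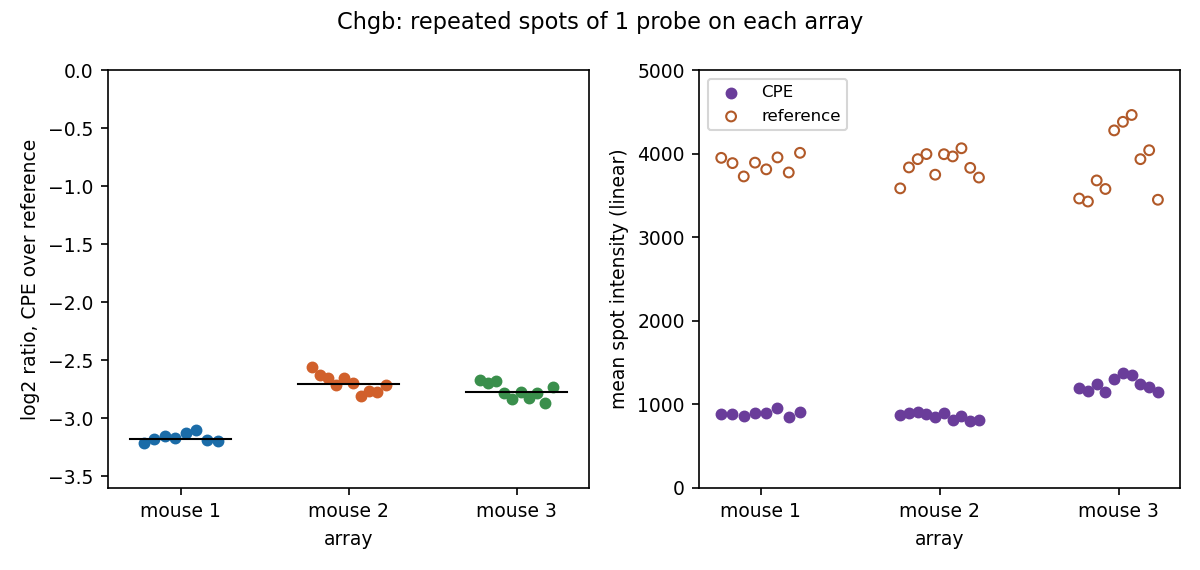
Repeated spots of the main *Chgb* probe on each array. Left, the log2 ratio of CPE over reference of each spot, with a line at the median (8 spots for mouse 1, 10 for mice 2 and 3); right, the mean spot intensity of each channel on a linear axis. Every CPE spot lies under every reference spot, and the spots of mouse 1 form a lower group of ratios, at -3.21 to -3.10.

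A second *Chgb* probe, designed on a cDNA clone 11113 bases upstream of the main probe (chr2:132475295-132475354), was dim. It read 76.9, 83.0 and 540 units in the CPE and 106, 104 and 314 in the reference. It was well above background on the third array alone, in both channels, and was not tested. Its percentiles, 3.77, 17.9 and 33.5, gave no usable level for the gene.

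*Scg2* encodes secretogranin II, the precursor of secretoneurin. Its probe (chr1:79314468-79314527, mm8, minus strand) read 152, 137 and 665 units in the CPE and 777, 777 and 715 in the reference. The CPE reading of mouse 3, on the array with the bright background, came close to the reference readings without crossing them. The log2 ratios were -2.93, -2.48 and -1.40, mean -2.27 (SE 0.28, n = 3, limma adjusted p = 0.000691), or 4.82-fold higher in the reference. With the scanner's own ratio the mean was -3.02. The SD between mice, 0.78, was the widest of the 12 tested probes of the set. The percentile was 45.7 in mouse 1, which is low, and 57.4 and 59.3 in mice 2 and 3, which are moderate. The reference percentile was 87.7 and 87.8 on arrays 1 and 2 and 76.1 on array 3.

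*Scg3* encodes secretogranin III, which binds chromogranin A and cholesterol-rich granule membrane. Its probe (chr9:75429422-75429481, mm8, minus strand) read 930, 539 and 1166 units in the CPE and 905, 914 and 1140 in the reference, and these uncorrected readings overlapped. After normalization the log2 ratios were -0.80, -0.98 and -1.04, all below 0. The mean was -0.94 (SE 0.15, 95% interval -1.30 to -0.59, limma adjusted p = 0.00257), a reference level 1.92-fold higher, which passed the p limit and not the 2-fold limit. With it, 6 of 8 genes passed the p limit at any fold, where 42.1% of all genes tested did. Without mouse 1 the mean was -1.01 (adjusted p = 0.0154) and passed both, and with median centring it was -0.41 and its adjusted p was 0.381. The percentiles varied little between mice, at 80.0, 79.9 and 81.1, all moderate.

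**Figure D3:**
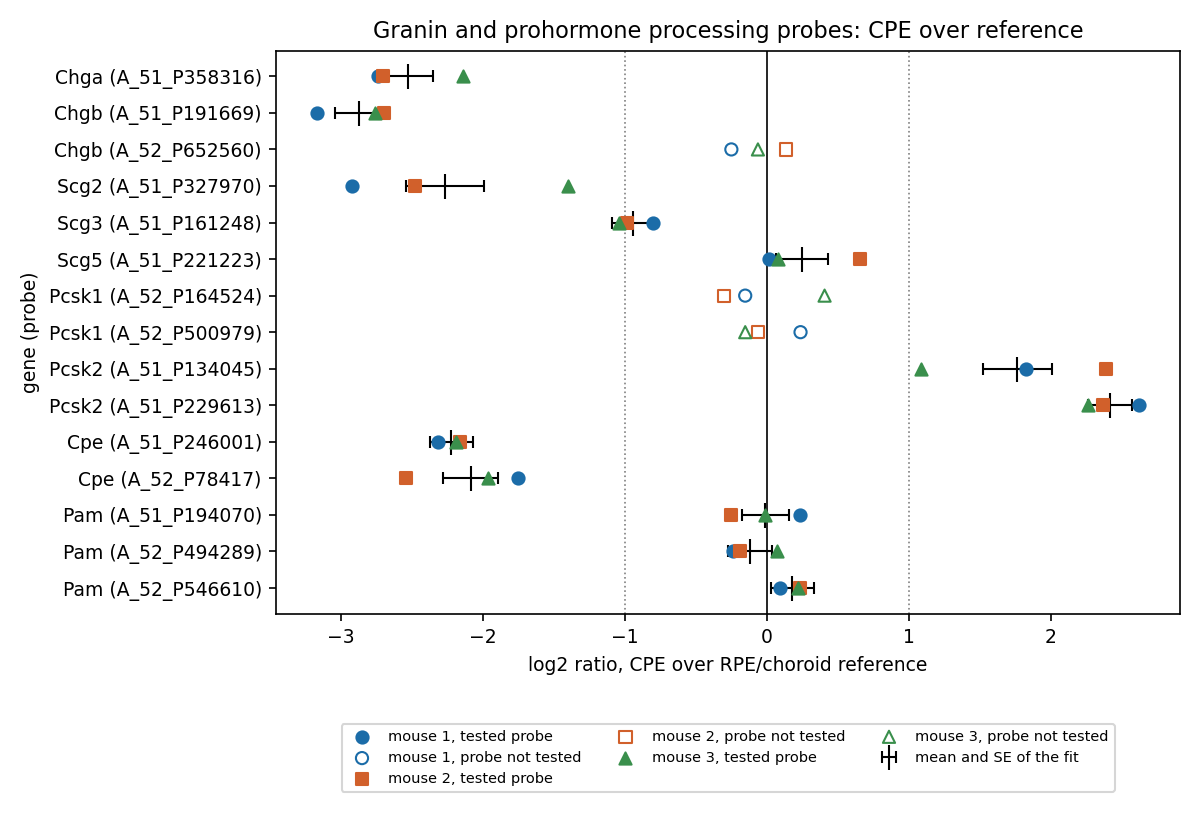
Log2 ratio of CPE over reference (x axis) for each of the 15 probes, in a row each, with a point for each of the 3 mice and a bar for the mean and its SE; open symbols mark probes that were not tested, and dotted lines mark 2-fold. Both *Pcsk2* probes lie to the right of 0 in each mouse, the *Chga*, main *Chgb*, *Scg2*, *Scg3* and *Cpe* probes to the left, and the *Pam* and *Pcsk1* probes on or around 0.

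The convertases and their chaperone were taken next. *Pcsk2* encodes prohormone convertase 2, which acts late, in the mature granule. Its brighter probe (chr2:143505354-143505413, mm8, plus strand) read 5990, 4786 and 3850 units in the CPE of mice 1, 2 and 3, and 513, 681 and 536 in the reference. All CPE readings lay far above all reference readings. The log2 ratios were 2.62, 2.37 and 2.26, mean 2.42 (SE 0.16, n = 3, limma adjusted p = 4.08e-05), which made the CPE 5.34-fold higher. With median centring the mean was 3.08. The percentiles were 96.2, 97.1 and 94.7, high in each mouse, against 79.7 in the reference, which is moderate.

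The other *Pcsk2* probe lay 1896 bases further towards the 3′ end (chr2:143507250-143507309). It read 1343, 1332 and 1141 units in the CPE and 259, 257 and 344 in the reference, again without overlap. The log2 ratios were 1.82, 2.39 and 1.08, mean 1.76 (SE 0.24, limma adjusted p = 0.00127), or 3.40-fold higher in the CPE. The direction was the same for both probes in 3 of 3 mice. Tested against a 2-fold change in place of no change (limma treat), the adjusted p of this probe was 0.112, and with the scanner's own ratio its mean was 2.38. Its percentiles, 85.9, 90.7 and 70.8, put it in the high class in mouse 2 only, with mouse 3 the lowest.

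*Scg5* encodes the protein 7B2, a chaperone that pro-convertase 2 needs for its maturation. Its probe (chr2:113577293-113577352, mm8, minus strand) read 2920, 3275 and 3271 units in the CPE and 1420, 1440 and 1677 in the reference. After normalization the log2 ratios were 0.012, 0.65 and 0.075, and only mouse 2 stood clearly above 0. The mean was 0.25 (SE 0.18, 95% interval -0.18 to 0.67, limma adjusted p = 0.321), which did not pass the threshold. With median centring it was 0.93 and its adjusted p was 0.0703, and before normalization every CPE reading lay above every reference reading. The percentiles were 92.3, 95.5 and 94.2 in the CPE and 92.6 in the reference, high in both.

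*Pcsk1* encodes prohormone convertase 1/3, which acts earlier in the pathway than convertase 2. One probe (chr13:75565302-75571958, spanning 6657 bases of the genome) read 88.3, 79.8 and 431 units in the CPE and 143, 145 and 246 in the reference, and it was not well above background on any array in either channel. The other probe (chr13:75598281-75598340) read 89.9, 77.4 and 608 in the CPE and 106, 102 and 353 in the reference, above background on the third array alone. The high readings on that array in both channels went with its bright background. Neither probe was tested, no fold is given, and the percentiles of the brighter one were 19.9, 8.62 and 41.1.

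*Cpe* encodes carboxypeptidase E, which trims the basic residues after convertase cleavage. Its first probe (chr8:67485215-67485274, mm8, minus strand) read 8793, 6156 and 5969 units in the CPE and 17621, 14993 and 14300 in the reference. Its log2 ratios were -2.32, -2.16 and -2.19, mean -2.22 (SE 0.15, limma adjusted p = 4.61e-05), or 4.67-fold higher in the reference. *Cpe* was thus called lower while it remained in the high class of the CPE in each mouse, at percentiles of 97.4, 97.5 and 97.4. In the reference the probe stood at 99.6.

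The second *Cpe* probe (chr8:67485410-67487144, spanning 1735 bases of the genome) read 6678, 2799 and 4679 units in the CPE and 9415, 9677 and 9472 in the reference. Its log2 ratios were -1.76, -2.55 and -1.96, mean -2.09 (SE 0.19, limma adjusted p = 0.000182), or 4.25-fold higher in the reference. Both probes were lower in 3 of 3 mice. With median centring the means were -1.36 and -1.28, and both calls held (adjusted p of 0.0188 or less over the alternatives). The second probe was in the high class in each mouse, at 96.6, 94.5 and 96.4.

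*Pam* encodes the amidating monooxygenase, the last of the listed enzymes to act. It had 3 probes and none was called. The probe with the highest CPE level (chr1:99652241-99652300, mm8, minus strand) read 176, 121 and 1352 units in the CPE and 187, 177 and 621 in the reference. Both channels were brighter on array 3 than on the other arrays. The log2 ratios were 0.090, 0.23 and 0.22, mean 0.18 (SE 0.15, 95% interval -0.17 to 0.53, limma adjusted p = 0.384), and the percentiles were 56.2, 57.1 and 81.7.

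The most upstream *Pam* probe (chr1:99726097-99726416) lay 76381 bases from the one nearest the 3′ end. Its log2 ratios were 0.23, -0.26 and -0.012, mean -0.013 (limma adjusted p = 0.959), and in the CPE it was above background in mice 1 and 3. The probe nearest the 3′ end (chr1:99649716-99649775), designed on a cDNA clone, had log2 ratios of -0.24, -0.19 and 0.068, mean -0.12 (limma adjusted p = 0.572). It was above background in the CPE of mouse 3 alone. The 3 probes thus all had means between -0.12 and 0.18, and 2 of them were near the limit of detection in the CPE.

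**Figure D4:**
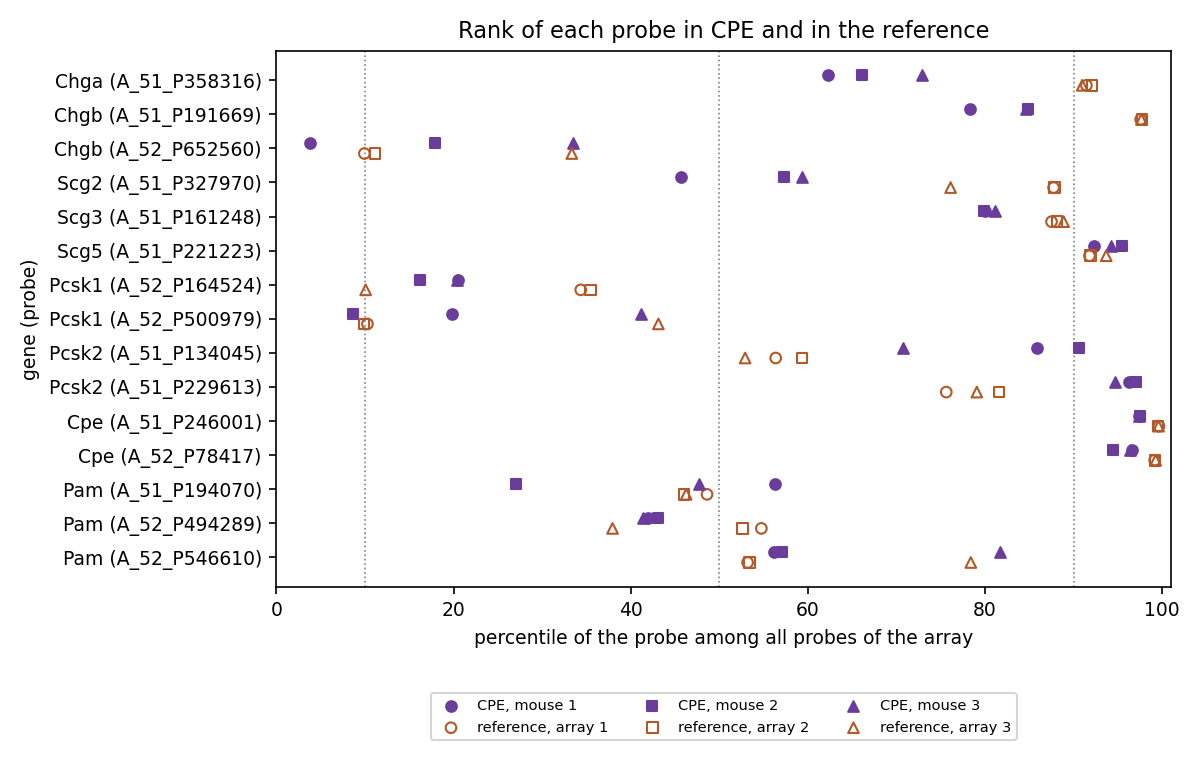
Percentile of the signal among all 41174 probes (x axis, 0 to 100) for each of the 15 probes, with filled symbols for the CPE of each mouse, open symbols for the reference on the same array and the class limits as dotted lines. Both *Cpe* probes, the brighter *Pcsk2* probe and *Scg5* lie above the 90th percentile in all 3 mice. The *Pcsk1* probes, the second *Chgb* probe and the *Pam* probe nearest the 3′ end lie under the 50th in all 3 mice.

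The spread between mice, each on its own array, was unequal over the set. On the 10 probes measured in both channels the median SD of the log2 CPE level over mice was 0.45, and that of the reference channel over arrays 0.25. Over all 17945 such probes on the array the medians were 0.34 and 0.31. The first *Cpe* probe was the steadiest of the 10, with an SD of 0.14. The brightest *Pam* probe had the widest SD, 1.28, which exceeded that of 98.7% of all such probes. This *Pam* probe read 176, 121 and 1352 units in the CPE and 187, 177 and 621 in the reference, brightest on array 3 in both channels. Its log2 ratio, which sets the 2 channels of an array against each other, had an SD of 0.077. Mouse and array cannot be told apart in these levels, and the cause was not tested. Without mouse 3 the median SD of the 10 probes was 0.19.

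The other convertases and their regulators were compared next. Of 8 listed genes, 7 were tested and 2 called (28.6%), where 18.9% of all genes tested were. The median log2 ratio was 0.19 against -0.04 over all genes tested. *Furin*, the convertase of the constitutive secretory pathway, was higher in the CPE in each mouse (1.89, 1.65 and 1.82), mean 1.79 (SE 0.15, limma adjusted p = 0.00013), at the 97.9th percentile (2.52 with median centring). *Pcsk6*, which encodes the convertase PACE4, was lower (-1.87, -1.43 and -0.59), mean -1.30 (limma adjusted p = 0.00489), and with median centring its mean of -0.98 was no longer past 2-fold. *Pcsk2* and *Furin* were thus the convertase genes called higher in the CPE, and neither *Pcsk1* probe gave a level to set beside them.

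Of 20 other enzymes that trim or modify peptides, all were tested and 7 were called (35%), 3 higher and 4 lower. The shares over all genes tested were 18.9% called, 7.93% higher and 11.0% lower. The median log2 ratio of the list was -0.07, close to the -0.04 over all genes tested. *Ace*, which encodes angiotensin-converting enzyme, was higher by a log2 ratio of 3.21 (limma adjusted p = 2.15e-05) and at the 98.9th percentile of the CPE. *Qpctl*, a glutaminyl cyclase of the Golgi, was higher by 1.31. *Qpct*, the secreted glutaminyl cyclase, was above background on all 3 arrays in the reference and in 1 CPE sample. It counted as lower, at -3.19, but it passed the filter through the reference alone. That filter favoured a call as lower, its CPE signal lay near background and no fold is given. *Qpct* was named after its value was seen. *Tpst1*, a protein tyrosine sulfotransferase, was higher by 1.05. *Cpm* and *Cpxm2*, genes of the same family as *Cpe*, were lower (-1.97 and -1.92). *Cpd*, *Cpz* and *Cpxm1*, also of this family, were tested and not called (-0.0079, 0.38 and 0.63). *Dpp4*, a dipeptidyl peptidase, was lower (-1.51). Without mouse 1, *Dpp4* (adjusted p = 0.0502) and *Tpst1* (0.97) were no longer called. The dimmest probes of *Cpxm2* (-0.24) and of *Dpp4* (-0.57) were tested and not called. With median centring *Ace* was at 3.92, *Tpst1* at 1.74 and *Cpxm2* at -1.26; with the scanner's own ratio *Cpm* was at -2.58 and *Dpp4* at -2.34, and *Dpp4* was at -2.10 without mouse 3.

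The machinery of dense-core vesicles had a median of -0.47, the lowest of the 4 lists. Of 34 genes, 26 were tested and 12 were called (46.2%), 3 higher and 9 lower. Over all genes tested, 18.9% were called, 7.93% as higher and 11.0% as lower, and the median was -0.04. With only probes measured in both channels on all arrays, 9 genes of this list were called. *Syt4*, a synaptotagmin of dense-core vesicles, was lowest at -4.73 (limma adjusted p = 3.47e-05), followed by *Snap25*, a fusion protein of the plasma membrane, at -3.72. *Rab27a* and *Cadps*, which act in vesicle docking and priming, were at -2.87 and -2.69; the other *Rab27a* probe, not above background in the CPE, was at -0.54 and not called. *Vamp2* and *Vamp4*, which encode vesicle fusion proteins and were named after their values were seen, counted as lower by their brightest tested probes (-1.09 and -1.03). The other *Vamp2* probes were called higher, at 1.01 and 1.16, so that this gene has no settled direction, and the other *Vamp4* probes (-0.49 and -0.84) were not called. With median centring neither brightest probe was called (*Vamp2* -0.42, adjusted p = 0.359; *Vamp4* -0.45, adjusted p = 0.358), and *Vamp4* also lost its call with no background correction (-0.96) and without mouse 3 (-0.93). *Cyb561*, the cytochrome that carries electrons across the granule membrane and so keeps the amidating enzyme supplied with ascorbate, was higher by 4.38 (limma adjusted p = 6.69e-06), at the 99.4th percentile. *Hid1*, needed for granule formation, was higher by 1.21 and was not past 2-fold without mouse 1 (0.97). With median centring *Snap25* was at -3.06 and *Cyb561* at 5.13; with the scanner's own ratio *Syt4* was at -5.40, *Rab27a* at -3.52 and *Hid1* at 1.86. *Snap25* also stood in the list of neuronal markers, 7 of 12 of which were called lower; the part of neuronal RNA in the reference in these values and in those of the granins was not tested.

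Of 65 listed peptide hormone and neuropeptide precursors, 62 had a probe, 39 were tested and 11 were called (28.2%), 4 higher and 7 lower. Among all genes tested, 18.9% were called, 7.93% as higher and 11.0% as lower. The median of the list was -0.16 against -0.04 over all genes tested. With only probes measured in both channels on all arrays, 10 genes of the list were called. *Penk*, the precursor of the enkephalins, was lower, with a log2 ratio of -4.57 (limma adjusted p = 7.96e-06), as were *Cck*, the cholecystokinin precursor, at -3.50, and *Cartpt*, the precursor of the CART peptides, at -2.64. The growth factor gene *Igf1* was at -2.35 at its brightest tested probe, and at -1.25 and -0.30 at its other probes, the last not called. The brightest tested *Igf2* probe was saturated in the CPE on all 3 arrays. It was at least 11.2-fold higher there (limma adjusted p = 1.27e-05), the bright group's mean being set against the reference's measured mean. The other *Igf2* probe was called higher, at a log2 ratio of 4.46 (limma adjusted p = 6.69e-06). *Sct*, the secretin precursor, was higher by 1.70 (limma adjusted p = 0.014), at 2.15 and 2.70 in mice 1 and 2 and 0.25 in mouse 3; with the scanner's own ratio it was 2.59 with an adjusted p of 0.0534, and without mouse 3 it was 2.42. *Ins2* and *Npb* were higher by 1.07 and 1.02, and neither was called without mouse 1 (0.95 and 0.83). The other *Ins2* probe, at 0.98, was tested and not called. *Npb* also lost its call without mouse 2 (0.86) and with no background correction (0.90), and stood at 1.84 with the scanner's own ratio. With median centring *Penk* was at -3.80.

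**Figure D5:**
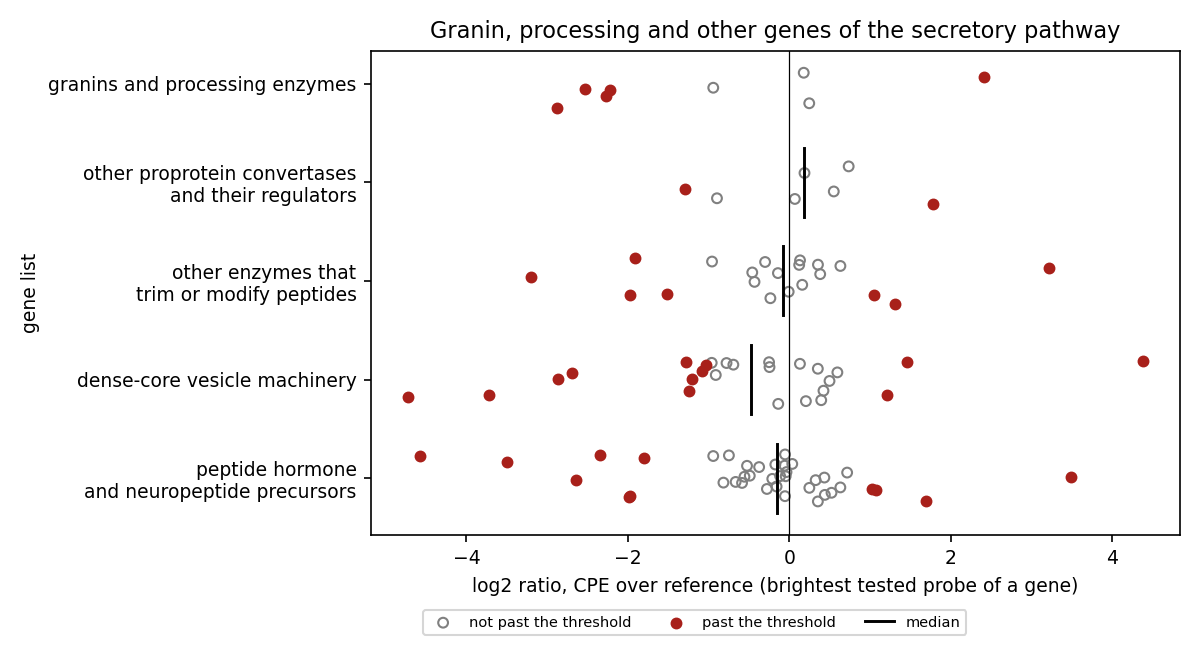
Log2 ratio of CPE over reference (x axis) of the tested genes in the set and in 4 lists of the secretory pathway, each gene a point at its brightest tested probe, filled where it was called, with a vertical line at the median of each of the 4 lists. The set holds 1 filled point above 0, *Pcsk2*, and 4 below, and the vesicle machinery runs from *Syt4* at -4.73 to *Cyb561* at 4.38.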

How the data were processed

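Choroid plexus epithelium (CPE) of 3 mice was hybridised in Cy5 against RPE/choroid RNA in Cy3 on 3 Agilent whole mouse genome arrays, 1 on each slide, so that slide and mouse cannot be told apart. The deposited scanner files hold the intensity of each spot (mean of its pixels and local background) and a log10 ratio of processed red over green, both from Agilent Feature Extraction 9.5.3.1. The authors also deposited a table of log2 levels of the CPE channel, made with limma in R 2.14.0 by Aquantile normalization. Its 3 columns had medians of 6.86, 6.82 and 6.85, ranked the probes as the red signal did (Spearman rho 0.998 to 1.000 across probes), and were used as an alternative only.

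Here the mean intensities were background corrected (normexp, offset 50) and normalized by loess within each array in limma 3.58.1 (R 4.3.3). Controls and spots marked as outliers were dropped, and replicate spots were averaged. Log2 ratios were fitted with lmFit and eBayes over all tested probes, and a gene stood at its brightest tested probe, while every probe of the set is given. Percentiles used the uncorrected red signal after Aquantile, as in the study. A saturated probe has a lower bound only. The fit was tested on simulated data. Precision is limited by the number of arrays, and p-values measure the spread between these 3 samples. Probe positions are mm8, from the scanner files; exons and introns are not given. RefSeq tables matched 23374 probes (56.8%) by accession.

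Members and gene lists were chosen with earlier results of these data known. All probes of the set are named; of each pathway list, at most the 4 highest and the 4 lowest called genes measured in both channels on all arrays; and of the marker lists, the genes with the highest and lowest ratio where a result turned on them. *Tyr*, *Pde6a*, *Enpp2*, *Clic6*, *Qpct*, *Cpd*, *Cpz*, *Cpxm1*, *Vamp2* and *Vamp4* were named after their values were seen. Astrocyte (1 of 6 higher, 2 lower), oligodendrocyte (2 of 5 higher), stromal (5 of 6 lower), endothelial (0 of 6 called) and macrophage markers (3 of 6 lower) were counted too. The alternatives were another normalization, background correction, ratio source, filter, array weights and test, and leaving out each mouse.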

Additional observations from a re-analysis of the deposited data

How the results depend on the processing

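The same 5 genes of the set were called under every alternative that was run; without mouse 1, *Scg3* joined them. Over all probes, 4462 were called against 6762 with the scanner's own log ratio. The 4 pathway lists together gave 32 calls, 27 to 37 over the alternatives. The mean ratio of the most upstream *Pam* probe changed sign to 0.12 with the scanner's ratio, 0.054 with array weights and 0.11 without mouse 2 (-0.13 to 0.11 when a mouse was left out), and was past no threshold. *Scg5* left the high class, at 87.3, when only probes above background in the CPE were ranked. The median spread of the set between mice was 0.45, 1.31 with median centring and 0.19 to 0.50 when a mouse was left out; the cause was not tested. Signals near background limit *Pcsk1*, 2 *Pam* probes and the second *Chgb* probe. Each ratio already sets a CPE sample against the reference on its own array. No paired analysis was possible because the 3 arrays form 1 group and no other numbered samples could be matched to them.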
